A study of Mus musculus with 4 samples.

Results

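Tumor cells that the authors' annotation calls Tcell are a group of T cells with little RNA, taken from mouse melanoma and sequenced one by one. They were chosen as every cell of the tumor RNA library with that label, which gave 406 of the 5570 tumor cells (7.29%, exact Clopper-Pearson 95% interval 6.62% to 8.0%) and 406 of 10558 cells in the whole series. No lymph node cell carried the label (0 cells). They are described beside the other large tumor labels, Tdp with 2693 cells and Cd4 with 2451 cells. How the labels were given is not stated in the sources used here, so a gene described below may have helped to choose the cells, and all values are descriptions.

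The Tcell, Tdp and Cd4 cells all come from the same tumor library, whose title names transgenic and endogenous cells. B16F10 melanoma, a transplantable mouse skin tumor, was grown under the skin, and CD4 T cells carrying a transgenic receptor for TRP1 (CD45.1), a melanocyte protein, were transferred 1 day after cyclophosphamide at 250 mg/kg. Tumors were taken 11 days after the transfer, and CD4+ and CD4+CD8+ cells were sorted and sequenced with a 10x Genomics 5′ kit. The strain is given as RAG1- BW TRP-1 TCR and the treatment as untreated, and the number and age of the animals are not given. Each tissue had 1 RNA library, so cells are not replicates, no test was possible, and every interval below covers counting error only. Lymph node cells, which the sample titles call endogenous, serve here only as a background for the coreceptor genes.

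A T cell recognises peptide on MHC molecules through its alpha-beta receptor, and the coreceptors CD4 and CD8 bind MHC class II and class I respectively. CD4 cells usually act as helpers through ligands such as CD40L, whereas CD8 cells usually kill with perforin and granzymes. A droplet library counts each captured RNA molecule once through its molecular identifier (UMI), so a cell with little intact cytoplasmic RNA and a small resting cell both give few UMIs.

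The Tcell cells were set apart by how little RNA was counted in them. Their totals ran from 503 to 5593 UMIs, with a median of 2040 and quartiles of 1510 and 2536. The median was 6633 UMIs in Tdp cells, which is 3.25 times higher, and 5533 in Cd4 cells, which is 2.71 times higher. Tcell cells showed a median of 816.5 genes, against 1917 in Tdp and 1788 in Cd4 cells. Of the 257 tumor cells at or under 2000 UMIs, 192 were Tcell (74.7%). The distributions nevertheless overlapped, because 58 Tdp and 70 Cd4 cells had no more UMIs than the upper quartile of the Tcell cells.

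The make-up of the RNA differed as well as its amount. Mitochondrial genes took a median of 3.1% of a Tcell cell's UMIs, with quartiles of 2.53% and 3.77%. The median was 1.95% in Tdp and 2.03% in Cd4 cells, and it was 2.32% and 2.20% in the Tdp and Cd4 cells of like depth. The highest share was 4.98% in a Tcell, 4.83% in a Tdp and 4.999% in a Cd4 cell, so the labels ended at nearly the same value. Whether cells were filtered on this share before deposition is not stated in the sources used here. The median share of ribosomal protein genes was 33.7% in Tcell, 29.5% in Tdp and 28.1% in Cd4 cells.

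**Figure D1:**
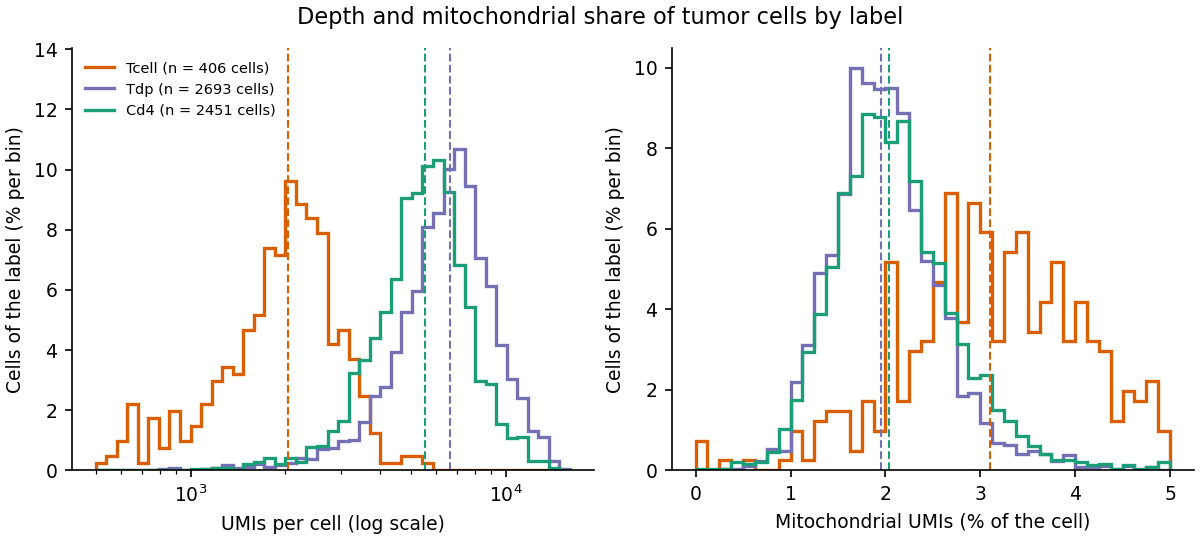
Share of the cells of each label (vertical axis, percent per bin) by UMIs per cell (left, log scale) and by mitochondrial percent of UMIs (right); dashed lines are medians. Tcell cells lie to the left of both other labels in UMIs, with a median of 2040 against 6633 and 5533, and to the right in mitochondrial percent, with a median of 3.1% against 1.95% and 2.03%.

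To compare genes at equal depth, every cell was thinned at random to 1000 UMIs. This kept 367 Tcell, 2690 Tdp and 2451 Cd4 cells and left out 39 Tcell and 3 Tdp cells below that depth. At equal depth the median number of genes seen was 498, 524 and 547, so most of the gap in gene number went with depth. Levels are given as CPM, the usual scaling of a gene's UMIs by all UMIs of the group. A gene was compared when it reached 100 CPM in either group and is called higher or lower at 2-fold or more in CPM plus 1. A gene under 100 CPM in Tcell cells thus entered only through the other label and could only lie below it. The Tdp and Cd4 cells of like depth, of which 55 and 70 had 1000 UMIs, were also set beside the Tcell cells. There a single UMI is worth 18.2 and 14.3 CPM, so their values for low genes are coarse.

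Few genes were higher and more were lower in the Tcell cells. Against Tdp cells, 1252 genes were compared, of which 8 were higher (0.639%) and 59 lower (4.71%), with a median log2 ratio of -0.07. Against Cd4 cells, 1315 genes were compared, of which 13 were higher (0.989%) and 98 lower (7.45%), with a median of -0.19. The higher calls made up 11.9% and 11.7% of all calls. Scaling instead to a total without ribosomal RNA locus, receptor segment, mitochondrial and ribosomal protein genes brings more genes past the minimum, 2038 against Tdp and 2086 against Cd4. It gave 53 higher and 70 lower genes against Tdp (43.1% higher), and 32 and 91 against Cd4 (26.0% higher). Over the 1252 and 1315 genes compared first, it gave 17 higher and 45 lower against Tdp, and 15 and 61 against Cd4. That scaling adds 0.11 and 0.14 to every log2 ratio. A second random draw called 12 and 48 genes against Tdp, of which 7 and 35 were shared with the first. Against Cd4 it called 12 and 88, of which 10 and 63 were shared. Membership thus depended on the draw. The same Tcell cells stand in both comparisons, so the 2 are not independent.

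**Figure D2:**
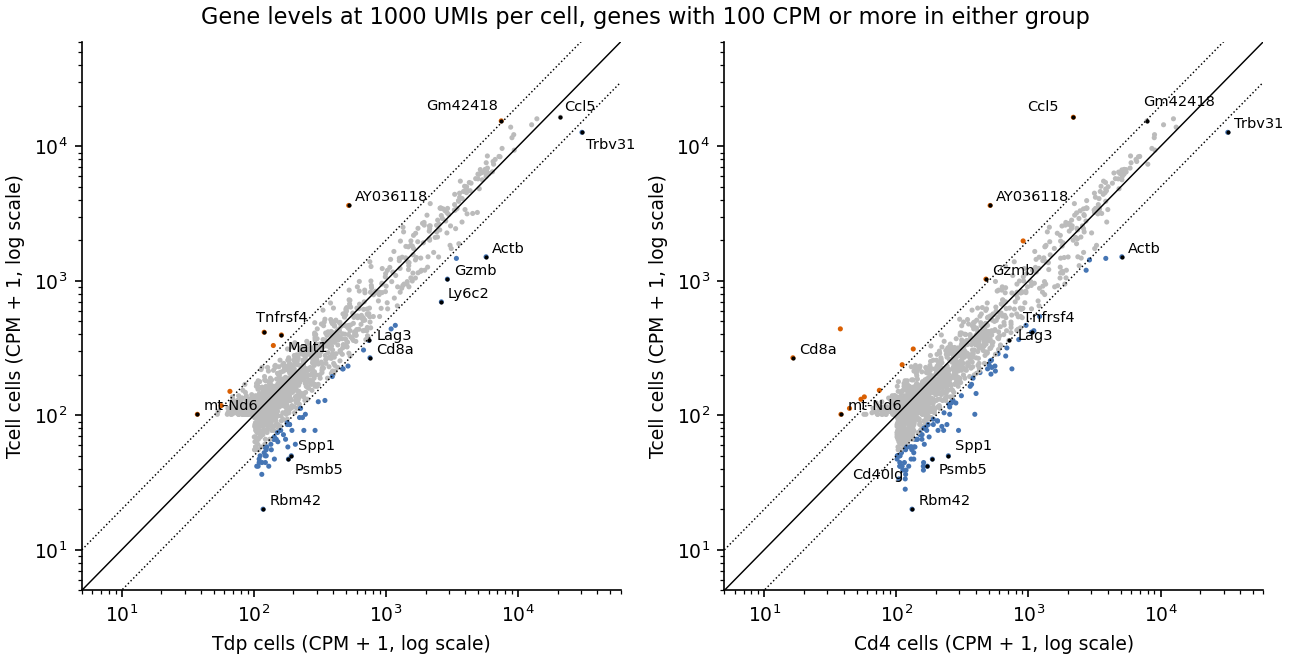
Level of each compared gene in Tcell cells (vertical axis, CPM plus 1, log scale) against Tdp cells (left) and Cd4 cells (right, both log scale), at 1000 UMIs per cell; the solid line marks equality, dotted lines 2-fold, orange genes are called higher and blue genes lower, and labelled genes have a black centre. AY036118 stands above the upper line in both panels, Actb, Psmb5, Rbm42, Spp1 and Trbv31 below the lower line in both, and Cd8a and Ccl5 far above it against Cd4 cells only.

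The transcript AY036118 was the marker that separated Tcell cells from both other labels. It stood at 3638 CPM in Tcell, 523 in Tdp and 512 in Cd4 cells, and at 473 and 543 CPM in the Tdp and Cd4 cells of like depth. The Tcell level was 6.96-fold that of Tdp (6.45 to 7.51) and 7.10-fold that of Cd4 (6.57 to 7.68), and 7.69-fold (5.23 to 11.8) and 6.70-fold (4.86 to 9.51) that of the cells of like depth. At 1000 UMIs, 82.3% of Tcell cells had at least 1 AY036118 UMI, against 31.6% of Tdp and 29.9% of Cd4 cells. A Tcell cell held a median of 2 UMIs with quartiles of 1 and 5, whereas the medians of the other labels were 0. The groups still overlapped, since 65 Tcell cells had 0 and single Tdp and Cd4 cells reached 11 and 21 UMIs.

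AY036118 is a long noncoding RNA that RefSeq places on mm10 at chr17:39848112-39898385. Its first 91 bases on the chromosome overlap Gm42418, which RefSeq lists as the pseudogene Rn18s-rs5, a relative of 18S ribosomal RNA, at chr17:39846354-39848202. Because the genes overlap, the split of counts between them is uncertain. Gm42418 itself had 15477 CPM in Tcell, 7477 in Tdp and 7886 in Cd4 cells, a ratio of 2.07 (2.01 to 2.13) and 1.96 (1.90 to 2.02). In cells of like depth it was lower still, at 2527 CPM in Tdp and 6000 in Cd4 cells. The list named for ribosomal RNA locus transcripts has 4 members, adding Gm26917 and Lars2, the mitochondrial leucyl-tRNA synthetase gene. RefSeq places Lars2 on chromosome 9, so it is not a transcript of the chr17 locus. All 4 were above Tdp and Cd4 in Tcell cells, 2 of them by 2-fold or more in each comparison, with medians of 0.92 and 1.09 on the log2 scale. Their summed level was 20327 CPM in Tcell, 8787 in Tdp and 9165 in Cd4 cells.

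All 13 mitochondrially encoded genes, which specify respiratory chain subunits, were also above both labels. The median log2 ratio was 0.69 against Tdp and 0.60 against Cd4. Only mt-Nd6, the 1 protein gene on the opposite strand of that genome, passed 2-fold, at 101 CPM in Tcell, 36.4 in Tdp and 37.1 in Cd4 cells. Among the genes compared, AY036118 and mt-Nd6 were the 2 called higher against both labels. However, mt-Nd6 entered the comparison only through its Tcell level, which was just past the 100 CPM minimum, so its call rests on that minimum. Use of strand in counting is not stated in the sources used here. As a sum, mitochondrial genes held 3.12% of Tcell UMIs and were 1.54-fold Tdp (1.51 to 1.57) and 1.49-fold Cd4 (1.46 to 1.52). Against the cells of like depth the ratios were 1.30 and 1.32. By contrast, 55 and 56 nuclear genes of oxidative phosphorylation had medians of -0.14 and -0.12, close to those of all genes, with 1 lower gene in each comparison and none higher (0 genes). The second of these medians turned to 0.02 with the reduced total.

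The RNAs for the translation machinery were slightly above the other labels. Of 80 ribosomal protein genes, 68 were above Tdp and 73 above Cd4, with medians of 0.22 and 0.30 and none past 2-fold (0 genes). Translation factors gave medians of 0.21 and 0.36 over 11 genes, of which 9 and 8 were above 0. Eef1a1, the elongation factor that delivers tRNA, had 16044 CPM in Tcell, 13912 in Tdp and 12529 in Cd4 cells.

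Other genes above both labels did so by less. Malt1, a signalling protease downstream of the T cell receptor, had 395 CPM in Tcell, 161 in Tdp and 218 in Cd4 cells. That is 2.45-fold (2.02 to 2.97) and 1.81-fold (1.5 to 2.18), and against Cd4 cells of like depth the ratio was 1.26 (0.799 to 2.07), which includes equality. Tor1aip1 and Tor1aip2, inner nuclear membrane partners of torsins, had 131 and 153 CPM in Tcell cells. Tdp cells had 68.4 CPM of Tor1aip1 and 81.8 of Tor1aip2, and Cd4 cells 53 and 73.4. The RefSeq spans of Tor1aip1 and Tor1aip2 overlap, so their counts are uncertain. At like depth Tor1aip1 was 1.20-fold Tdp (0.512 to 3.43) and Tor1aip2 was 1.19-fold Cd4 (0.583 to 2.73), and both intervals include equality. Neat1, the scaffold RNA of nuclear paraspeckles, had 234 CPM against 145 and 139, and Il2ra, the IL-2 receptor alpha chain, 125 CPM against 77.7 and 76.7. The remaining named genes of this kind were Acbd6, AU020206, Fam174a, Smim3, Aes and Arid1a. Of these, Fam174a had 112 CPM in Tcell and 164 in Tdp cells of like depth, and Arid1a 101 CPM in Tcell and 114 in Cd4 cells of like depth, on 9 and 8 UMIs in the comparison cells. Of the 12 named genes above both labels, AY036118 alone had intervals that exclude equality against both groups of like depth.

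**Figure D3:**
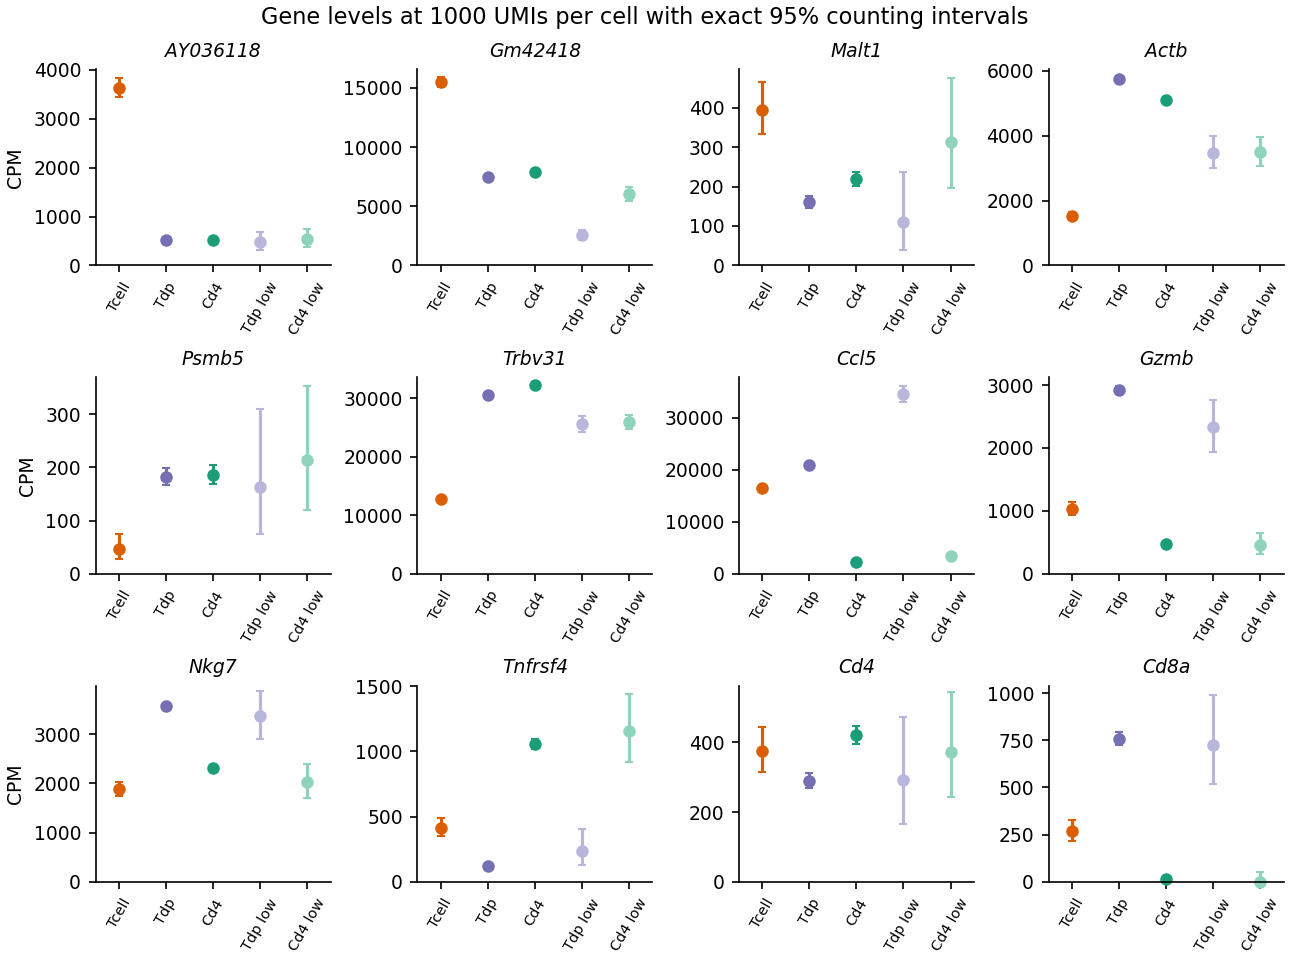
Levels in CPM (vertical axis, from 0) of 12 genes at 1000 UMIs per cell in Tcell, Tdp and Cd4 cells and in the Tdp and Cd4 cells of like depth ("low"); points are levels of the pooled cells and bars exact Clopper-Pearson 95% intervals for counting error. AY036118, at 3638 CPM, and Gm42418 are highest and Actb, at 1510 CPM, Psmb5 and Trbv31 lowest in Tcell cells, whereas Ccl5, Gzmb, Tnfrsf4 and Cd8a lie between Tdp and Cd4.

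The clearest low transcript was Actb, the gene of cytoplasmic beta-actin. It had 1510 CPM in Tcell, 5738 in Tdp and 5098 in Cd4 cells, so Tdp was 3.8-fold (3.49 to 4.14) and Cd4 3.38-fold (3.1 to 3.68) higher. In cells of like depth Actb stood at 3473 and 3486 CPM, which is 2.30-fold and 2.31-fold the Tcell level. At least 1 Actb UMI was seen in 69.8% of Tcell, 98.4% of Tdp and 98.2% of Cd4 cells. Actg1, the gamma-actin gene, differed far less, with 3150, 4120 and 3352 CPM. Of 16 cytoskeleton genes, 14 were below Tdp and 13 below Cd4, with medians of -0.57 and -0.49, and 1 and 2 of them passed 2-fold. Their sum differed less, at 4.36% of UMIs in Tcell, 4.67% in Tdp and 4.74% in Cd4 cells. In the Tdp and Cd4 cells of like depth the sum was 4.39% and 4.66%.

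Genes of protein turnover were lower as a group. The proteasome degrades proteins tagged with ubiquitin, and its subunit list was added after values had been seen. All 19 subunits compared with Tdp and all 18 compared with Cd4 were below them, with medians of -0.79 and -0.74, and 5 and 4 passed 2-fold. Psmb5, a catalytic subunit, had 46.3 CPM in Tcell, 182 in Tdp and 186 in Cd4 cells, and 164 and 214 CPM in the cells of like depth. Tdp was thus 3.93-fold (2.43 to 6.81) and Cd4 4.03-fold (2.49 to 6.97) higher, although the Tcell value rests on 17 UMIs. Psmb6, Psmb10, an immunoproteasome subunit, and Psmd4, a ubiquitin receptor, were also lower than both. Ubb, a ubiquitin gene, had 1469 CPM in Tcell, 3420 in Tdp and 3853 in Cd4 cells. Summed over all 40 subunits without a minimum, Tdp cells had 1.58-fold (1.49 to 1.67) and Cd4 cells 1.63-fold (1.55 to 1.73) the Tcell level. In cells of like depth the sums were 1.44-fold and 1.54-fold.

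MHC class I genes, which present peptides from that pathway, had medians of -0.72 and -0.68 over 9 genes, 8 of them below each label. H2-K1 had 1837 CPM in Tcell, 3062 in Tdp and 3278 in Cd4 cells, and H2-D1 had 1738, 3126 and 3174 CPM. Tdp cells of like depth had 1982 CPM of H2-D1, which is 1.14-fold the Tcell level (0.922 to 1.4) and includes equality. B2m, the invariant light chain, did not share this against the whole labels, at 3112, 2991 and 2630 CPM. In Tdp cells of like depth B2m stood at 4200 CPM, 1.35-fold the Tcell level (1.17 to 1.56). In Cd4 cells of like depth it was 1.06-fold (0.912 to 1.22), which includes equality.

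Glycolysis genes, which break down glucose, were lower mainly against Cd4 cells. All 9 glycolysis genes were below Cd4, 5 of them by 2-fold or more, with a median of -1.15, and 8 of 9 were below Tdp, with 2 past 2-fold and a median of -0.31. Eno1, the enolase gene, had 101 CPM in Tcell, 245 in Tdp and 392 in Cd4 cells, and Pkm, pyruvate kinase, 221, 474 and 750 CPM. Mdh1, cytosolic malate dehydrogenase, had 46.3, 142 and 129 CPM, and Atp5b, the catalytic subunit of mitochondrial ATP synthase, 76.3, 239 and 206 CPM. In Cd4 cells of like depth Atp5b stood at 100 CPM, 1.31-fold the Tcell level (0.483 to 3.07).

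In all, 36 genes were called lower against both labels. Rbm42, an RNA-binding protein gene, was lowest relative to both in the draw used. It had 19.1 CPM from 7 UMIs in Tcell, 117 in Tdp and 131 in Cd4 cells. With all UMIs the gap was smaller, at 40.3 CPM from 34 UMIs in Tcell, 115 in Tdp and 122 in Cd4 cells. Ddx39b, an RNA helicase of splicing and export, had 35.4 CPM against 114 and 117. With all UMIs Ddx39b had 65.3 CPM against 103 and 113, which is under 2-fold. Snrpd3, a core spliceosome protein, had 43.6 CPM against 115 and 114. Rbbp4, a histone-binding protein, had 40.9 CPM against 107 and 105. Capg, which caps actin filaments, had 76.3 CPM against 290 and 227, and Ctsb, the cathepsin B gene, 76.3 against 194 and 295.

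For a few of these genes the low level depended on the cells compared. Spp1, the secreted protein osteopontin, had 49 CPM in Tcell, 191 in Tdp and 247 in Cd4 cells, but 18.2 CPM (1 UMI) in Tdp and 529 in Cd4 cells of like depth. Ifi47, an interferon-induced GTPase, had 40.9 CPM against 129 and 123, yet 36.4 CPM in Tdp cells of like depth. At like depth the Tcell level was 2.70-fold that of Tdp for Spp1 (0.426 to 112) and 1.12-fold for Ifi47 (0.261 to 10.1), so neither order was resolved at this depth. Ddx39b had 42.9 CPM in Cd4 cells of like depth, 1.21-fold the Tcell level (0.221 to 4.4). Against Tdp cells of like depth the intervals of Capg, Ctsb and Snrpd3 also included equality.

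The label was checked against T cell genes. All 15 genes of the T cell and receptor complex list were compared, with medians of -0.12 against Tdp and -0.58 against Cd4, against -0.07 and -0.19 for all genes. Cd3e, a signalling chain of the receptor complex, had 1199 CPM in Tcell, 1857 in Tdp and 1938 in Cd4 cells and was seen in 71.1% of Tcell cells. Trac, the alpha constant region, was level, at 812, 788 and 749 CPM. Trbc2, the beta constant region in use, was nearly so, at 2057, 2137 and 2349 CPM. Against cells of like depth neither stayed level. Trac was 0.732-fold Tdp (0.554 to 0.981) and 1.35-fold Cd4 (0.977 to 1.92), of which the second includes equality. Trbc2 was 0.754-fold Tdp (0.632 to 0.905) and 0.778-fold Cd4 (0.662 to 0.919). The label is therefore kept, as receptor complex transcripts were seen in these cells.

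The variable segment of the transgenic beta chain lay further below the other labels than its constant region. Trbv31 had 12725 CPM in Tcell, 30537 in Tdp and 32292 in Cd4 cells, so Tdp was 2.40-fold (2.33 to 2.47) and Cd4 2.54-fold (2.46 to 2.61) higher. In cells of like depth it stood at 25527 and 25900 CPM. It was seen in 99.5% of Tcell cells. Per UMI of Trbc1 and Trbc2 together there were 5.85 Trbv31 UMIs in Tcell, 13.9 in Tdp and 13.1 in Cd4 cells, and 8.94 and 9.39 in those of like depth. Trbc1 alone, at 117 CPM in Tcell and 55.8 in Tdp, was called higher against Tdp, but it had 127 CPM in Tdp cells of like depth, a ratio of 0.921 (0.411 to 2.43) that includes equality. Trbc1 and Trbc2 are near-identical copies, so their split is uncertain.

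The authors' receptor calls named the transgenic receptor in nearly every Tcell cell. A chain was called in 403 of 406 cells (99.3%), against 99.6% of Tdp and 99.3% of Cd4 cells. Of the Tcell cells, 0 carried a chain other than the transgenic pair, which allows up to 0.904% of cells at the upper exact bound. The number was also 0 among the 2693 Tdp and the 2451 Cd4 cells, so it is not particular to the Tcell label. Whether receptor calls helped to choose or label the cells is not stated in the sources used here. Both chains were called in 60.1% of Tcell cells (55.2% to 64.9%), against 98.1% of Tdp and 93% of Cd4 cells. The beta chain alone was called in 159 Tcell cells (39.2%, 34.4% to 44.1%), against 1.34% and 6.20%. In cells of like depth the beta chain alone was called in 9 of 58 Tdp cells (15.5%, 7.35% to 27.4%) and 16 of 70 Cd4 cells (22.9%, 13.7% to 34.4%). The Tcell share lay above both intervals at like depth. Its own interval lay above that of Tdp and overlapped only the upper edge of that of Cd4.

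Coreceptor UMIs placed the Tcell cells between the other labels. Cd4, the class II coreceptor, stood at 376 CPM in Tcell, 290 in Tdp and 422 in Cd4 cells. Cd8a and Cd8b1, the chains of the class I coreceptor, stood at 267 and 439 CPM in Tcell, 758 and 1096 in Tdp, and 15.5 and 36.7 in Cd4 cells. At 1000 UMIs a Cd4 UMI was seen in 28.9% of Tcell cells (24.3% to 33.8%), 24.5% of Tdp and 33.4% of Cd4 cells. A Cd8a or Cd8b1 UMI was seen in 37.1% of Tcell cells (32.1% to 42.2%), 78.9% of Tdp and 3.59% of Cd4 cells. As a background at the same depth, 1.26% of lymph node Cd8 cells had a Cd4 UMI and 3.12% of lymph node Cd4 cells a Cd8a or Cd8b1 UMI, at native medians of 6306 and 4763 UMIs. The Tcell shares stood above both, as those of any group holding cells of both kinds would.

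Counted cell by cell at 1000 UMIs, 9.26% of Tcell cells (6.50% to 12.7%) had UMIs of both coreceptors, 19.6% of Cd4 only, 27.8% of Cd8 only and 43.3% of neither. Tdp cells had both in 19.4%, Cd8 only in 59.5% and neither in 16%. Cd4 cells had both in 1.10%, Cd4 only in 32.3% and neither in 64.1%. As a background at the same depth, both were seen in 0 of 2784 lymph node Cd8 cells and in 0.215% of lymph node Cd4 cells. With all UMIs, both were seen in 20.2% of Tcell cells (16.4% to 24.4%). Cells with both could be double positive cells or doublets, and which of these they are was not tested.

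Genes that set Tdp apart from Cd4 cells mostly took middle values in Tcell cells. Leaving out coreceptors and receptor segments, 16 genes were 2-fold or more higher in Tdp than in Cd4 cells, and Tcell lay between for 14 and below both for 2, Fgl2 and Ly6c2. Another 33 genes were higher in Cd4 cells, and Tcell lay between for 27, above both for Trbc1 and below both for 5, Itm2c, Tpi1, Ifitm2, Fos and Cd5. On a log2 scale from 0 at the Cd4 level to 1 at the Tdp level, the median Tcell position was 0.446 for the first set and 0.618 for the second. Both sets were chosen for a gap of 2-fold or more in these same data, which favours a middle value for any other group. The share lying between over all compared genes was not computed, so these counts and positions are descriptions only.

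Single cells differed in which set they showed. A median Tcell cell had UMIs of 3 Tdp-high and 3 Cd4-high genes, against 5 and 3 in Tdp and 2 and 7 in Cd4 cells. More Tdp-high than Cd4-high genes were seen in 148 Tcell cells (40.3%, 35.3% to 45.5%), and the reverse in 194 (52.9%, 47.6% to 58.1%). The first share was 75.5% among Tdp and 4.04% among Cd4 cells. In 100 Tcell cells (27.2%) the numbers were within 1 of each other, close to the cut. These gene sets were chosen from the Tdp and Cd4 cells, so their own shares are not independent of the choice.

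**Figure D4:**
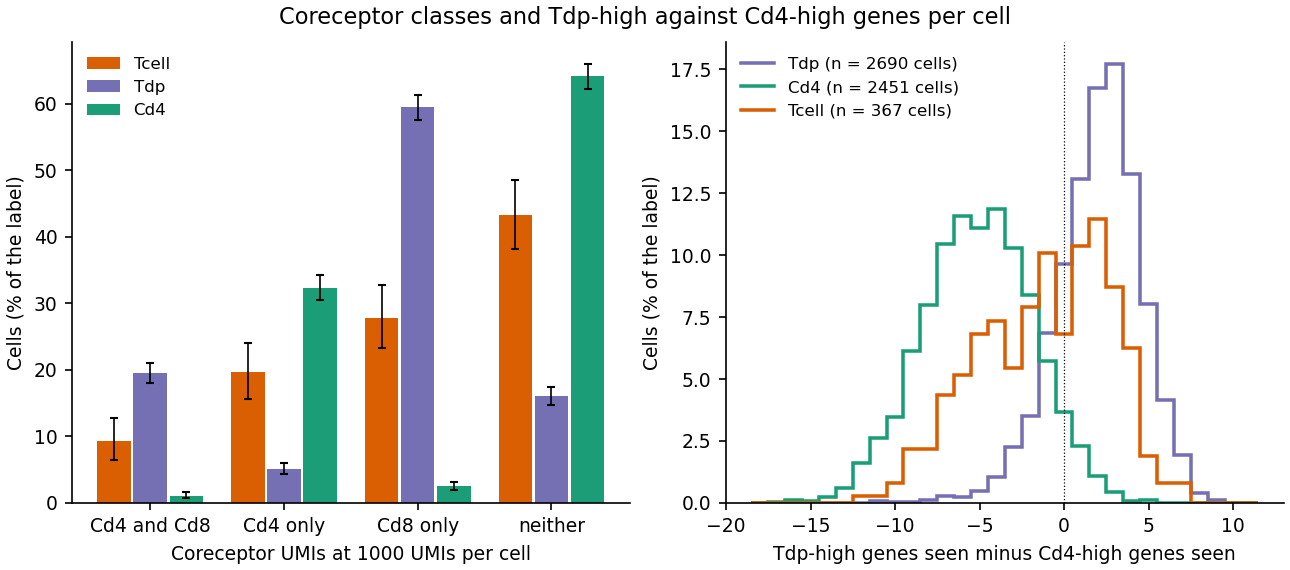
Left: percent of the cells of each label (from 0) by the coreceptor UMIs they show at 1000 UMIs per cell, with exact Clopper-Pearson 95% intervals. Right: percent of the cells by the number of Tdp-high genes seen minus the number of Cd4-high genes seen. Tcell cells have both coreceptors in 9.26%, and their differences spread over the ranges of both other labels.

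Genes of killing were below Tdp cells and on either side of Cd4 cells. Perforin opens the target membrane and granzymes enter through it, and chemokines such as CCL5 attract further cells. Of 16 cytotoxic and chemokine genes compared with Tdp, all were below it and 4 passed 2-fold, with a median of -0.63. Of 14 compared with Cd4, 5 were above and 9 below it, 2 were called higher and 1 lower, with a median of -0.13 that turned to 0.01 with the reduced total. Gzmb, granzyme B, had 1030 CPM in Tcell, 2923 in Tdp and 476 in Cd4 cells, so Tdp was 2.84-fold higher (2.56 to 3.15) and Tcell 2.16-fold above Cd4 (1.92 to 2.43). A Gzmb UMI was seen in 45.5% of Tcell, 81.1% of Tdp and 25.3% of Cd4 cells. Prf1, perforin, had 59.9 CPM in Tcell and 206 in Tdp cells, and a UMI of it was seen in 5.72% of Tcell, 17.3% of Tdp and 1.63% of Cd4 cells.

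Ccl5 had 16474 CPM in Tcell, 20966 in Tdp and 2188 in Cd4 cells, which is 7.53-fold Cd4 (7.26 to 7.81). It was seen in 63.2%, 92.4% and 26.6% of cells. Tdp cells of like depth held 34491 CPM of Ccl5, above the Tdp cells as a whole. Nkg7, a granule membrane protein, had 1888 CPM in Tcell, 3570 in Tdp and 2313 in Cd4 cells, so it was lowest in Tcell. Against Cd4 cells of like depth, at 2029 CPM, the ratio was 0.931 (0.776 to 1.12), which includes equality. Srgn, the granule proteoglycan serglycin, was called lower against Cd4, at 1431 against 2900 CPM. Of the markers given for these cells, AY036118 alone was above both other labels, and Ccl5, Nkg7 and Gzmb were not.

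Genes of helper function were low relative to Cd4 cells. Of 13 helper genes, 5 were compared with Cd4. All 5 were below it and 3 passed 2-fold, with a median of -1.35, while 1 of 3 compared with Tdp was higher. Summed over all 13 without a minimum, the list held 1240 CPM in Tcell, 807 in Tdp and 2800 in Cd4 cells. Cd40lg, the ligand that helps B and dendritic cells, had 40.9 CPM from 15 UMIs in Tcell, 7.81 in Tdp and 171 in Cd4 cells. Tnfsf11, the cytokine RANKL, had 27.2, 2.23 and 116 CPM. Cd40lg and Tnfsf11 entered the comparison with Cd4 only through their Cd4 level, so their direction there was set by the minimum. Tnfrsf4, the costimulatory receptor OX40, had 414 CPM in Tcell, 119 in Tdp and 1055 in Cd4 cells. Ifitm3, an antiviral membrane protein gene, had 330, 140 and 531 CPM, and its relative Ifitm2 had 38.1, 40.5 and 160 CPM.

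Because the Tcell cells held a mixture of coreceptor classes, they were also split by Cd8 UMIs at 1000 UMIs. The 136 Tcell cells with a Cd8a or Cd8b1 UMI were set beside 2123 such Tdp cells, and the 231 without beside 2363 such Cd4 cells. At this depth a Cd8 UMI was seen in only 78.9% of Tdp cells and 67.3% of those of like depth. Tcell cells without one can therefore still express Cd8, and the second pair is not matched in composition. The first comparison covered 1280 genes, of which 26 were higher (2.03%) and 108 lower (8.44%). The second covered 1324 genes, of which 12 were higher (0.906%) and 74 lower (5.59%). AY036118 stood at 3676 CPM in Tcell and 528 in Tdp cells with Cd8 UMIs, and at 3615 CPM in Tcell and 514 in Cd4 cells without them. Actb had 1640 CPM in Tcell and 5728 in Tdp cells with Cd8 UMIs, and 1433 in Tcell and 5089 in Cd4 cells without. Psmb5 had 44.1 and 187 CPM in the first pair and 47.6 and 186 in the second. The order of the labels for these 3 genes was thus the same in each class.

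Some genes that differ between Tdp and Cd4 cells did not keep their order within the classes. Tnfrsf4 stood at 66.2 CPM in Tcell and 102 in Tdp cells with Cd8 UMIs, and Ifitm3 at 88.2 and 115 CPM, so neither was above Tdp there, and the intervals of both ratios include equality. Ccl5 stood at 28441 CPM in Tcell and 22227 in Tdp cells with Cd8 UMIs, and at 9429 in Tcell against 1975 CPM in Cd4 cells without. In that second pair, Tcell cells whose Cd8 RNA was missed may add to the Tcell level, which was not tested. Cd40lg had 0 UMIs in Tcell cells with Cd8 UMIs and 64.9 CPM in those without, against 174 in Cd4 cells without. Gzmb stayed lower than in Tdp, at 1522 against 3038 CPM.

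Ly6c2, a surface protein of activated and memory T cells, was called lower against Tdp, at 698 CPM in Tcell and 2631 in Tdp cells. Cd4 cells had 794 CPM of Ly6c2, but those of like depth had 371, so that Tcell was 1.88-fold above them, with an interval that excludes equality and reaches 2.93. Lbh, a transcription cofactor, was called higher against Tdp, at 150 against 65.1 CPM, with 167 in Cd4 cells. Ugcg, the glucosylceramide synthase gene, was called higher against Cd4, at 112 against 43.2 CPM, with 82.2 in Tdp cells. At like depth Ugcg was 1.12-fold Cd4 (0.496 to 2.95), which includes equality.

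The exhaustion and checkpoint list had medians of -0.47 over 7 genes against Tdp and -0.34 over 8 against Cd4, with 1 gene past 2-fold against Tdp and none (0 genes) against Cd4. That gene, Lag3, had 360 CPM in Tcell, 742 in Tdp and 710 in Cd4 cells. Pdcd1, the receptor PD-1, had 177, 276 and 191 CPM, and Ctla4 510, 418 and 532 CPM. Immediate early genes, which respond within minutes to receptor signals, had medians of -0.08 against Tdp, which is close to that of all genes and turned to 0.04 with the reduced total, and -0.46 against Cd4. None of 15 (0 genes) was called lower against Tdp and 4 of 16 were against Cd4. Nr4a1 had 213 CPM in Tcell, 412 in Tdp and 561 in Cd4 cells, and Junb 1199, 1968 and 2735 CPM.

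Markers of other cell types were at or near 0. Neutrophil, fibroblast and erythroid and platelet lists summed to 0 CPM in Tcell cells, melanoma genes to 2.72, endothelial genes to 5.45 and macrophage genes to 16.3 CPM. Csf1r, C1qa, C1qc, Adgre1 and Fcgr1 of the macrophage list, Pmel, Dct, Tyr, Tyrp1 and Mitf of the melanoma list, and 7 of 8 B cell genes had 0 UMIs. The B cell list held 35.4 CPM, all from Ighm, against 7.06 in Tdp and 33.0 in Cd4 cells. Natural killer genes summed to 19.1 CPM with Ncr1 at 0, and dendritic and MHC class II genes to 30.0 CPM. Of the gamma delta list only Trdc was seen, at 104 CPM in Tcell, 139 in Tdp and 113 in Cd4 cells. Foxp3, the regulatory T cell factor, had 0 UMIs. A marker of another type was seen in 42 of the 406 Tcell cells with all UMIs. The same number for Tdp and Cd4 cells is not given here, so it cannot be read as high or low.

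Within the Tcell cells the pattern varied with depth. The 367 cells were split into 4 bins of 91 or 92 cells by native UMIs, from 1022 to 5593. AY036118 was 2326 CPM in the lowest bin and 4220, 4217 and 3793 CPM in the others. Gm42418 went from 10207 to 19891 CPM, and ribosomal protein genes from 30.3% to 36.2% of UMIs, from the lowest to the highest bin. Trbv31 went the other way, from 15859 to 11207 CPM. Malt1 had 554, 495, 239 and 293 CPM. Actb stayed between 1370 and 1728 CPM and mitochondrial genes between 3.02% and 3.23%, so neither followed depth. Ccl5 stood at 12946 and 11945 CPM in the lower bins and 19859 and 21098 in the upper ones.

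Of 36 cell barcodes that occur in both the tumor and lymph node libraries, 1 belonged to a Tcell cell. The number of Tcell cells and the RNA in each are both counts of 1 library. Low RNA, high mitochondrial share and the label itself move together here, and their parts in the gene differences were not tested.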

How the data were processed

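The authors deposited a table of raw UMI counts for 14721 genes in 10558 cells and a table of text annotations, an other kind of value, with the library, label and receptor of each cell. Cell Ranger 3.1.0 and the build mm10 are named in the submitters' processing notes; which filters preceded deposition, and how cells were labelled, the sources used here do not say.

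Members, comparisons and gene lists were chosen with earlier results of these data known. Counts were thinned without replacement to 1000 UMIs per cell, summed per label and scaled to CPM, and compared as the log2 ratio of CPM plus 1. The tumor library held 33147030 UMIs, of which 842897 were in Tcell cells. Fold changes are ratios of CPM with exact conditional Poisson 95% intervals, without the added 1, and shares carry exact Clopper-Pearson 95% intervals. With 1 library per tissue no p-value was computed. No doublet caller was run and no cell was removed as a doublet. The script was tested on simulated data.

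Named genes were 12 at each end of the ranking against both labels, by the smaller ratio, and 6 at each end of the ranking against each label alone. They needed 100 CPM in Tcell cells (higher) or in the labels compared (lower). The ranking omitted classes of genes such as receptor segments, mitochondrial and ribosomal protein genes, and list members were named as examples. Other genes named in the text, such as those listed as lying below both labels, were chosen after their values were seen. There were 34 lists. Alternatives were 500 or 2000 UMIs per cell, all UMIs, another random draw, comparison cells of like depth, cells without markers of other types, cells with both receptor chains, TMM or a reduced total, 20 CPM or no minimum, a pseudocount of 10 CPM and, added after the data were seen, groups matched for Cd8 UMIs. Python 3.11.15, numpy 2.4.6, scipy 1.17.1, R 4.3.3 and edgeR 4.0.16 (TMM only) were used, and gene positions come from RefSeq on GRCm38.p6.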

Additional observations from a re-analysis of the deposited data

How the results depend on the processing

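No paired analysis was possible because each tissue had 1 RNA library, so the replicate numbers name single libraries. Of 778 recomputed log2 ratios of the named genes, 685 stayed within the counting interval of the reported value, 88 moved outside it and 5 values of called genes changed sign. Among the 88, Fam174a against Tdp turned to -0.55 and Arid1a against Cd4 to -0.18 at like depth. Against Tdp cells of like depth, Spp1 turned to 1.38, Ifi47 to 0.16 and Trbc1 to -0.12; with groups matched for Cd8 UMIs, Tnfrsf4 turned to -0.61 and Ifitm3 to -0.38. The cause was not tested. AY036118 stayed between 2.71 and 3.08 against Tdp and between 2.70 and 3.13 against Cd4.

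Counts of called genes depended on the settings. Against Tdp, where 8 were higher and 59 lower, the higher count was 27 at 500 UMIs, 15 in cells with both receptor chains and 53 with the reduced total, which also brought 2038 genes into the comparison in place of 1252 (17 over the same 1252). It was 90 against cells of like depth, 185 at 20 CPM, 1102 with no minimum and 26 in matched groups, and the lower count in those 4 settings was 204, 329, 1726 and 108. Against Cd4, where 13 were higher and 98 lower, the higher count was 32 with the reduced total (2086 genes, 15 over the same 1315), 37 at like depth, 130 at 20 CPM and 983 with no minimum, and the lower counts in the last 3 were 304, 456 and 1940. Lower minimums add genes of few UMIs, and cells of like depth are few. A second random draw called 12 and 48 genes against Tdp and 12 and 88 against Cd4. Of the lower calls, 35 and 63 were shared, so calls depend on the draw.

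Shares of Tcell cells with a UMI followed depth. For Cd4, Cd8 and both coreceptors, reported as 28.9%, 37.1% and 9.26%, they were 16.5%, 22.9% and 3.69% at 500 UMIs, 40.2%, 55.6% and 21.0% at 2000 UMIs (214 cells) and 45.3%, 47.3% and 20.2% with all UMIs. Cells with both chains had Cd8 UMIs in 43.9%. AY036118 took 0.364% of UMIs, 0.340% at 500 and 0.432% at 2000 UMIs. Ribosomal protein genes took 34.0%, and 33.5%, 35.5%, 34.4%, 34.2% and 33.6% at 500 UMIs, 2000 UMIs, all UMIs, without marker cells and with both chains, where mitochondrial genes took 3.05%. With the reduced total the medians against Tdp of the naive, immediate early, type 1 and apoptosis lists and of all genes changed sign, and so did those of the cytotoxic, gamma delta and nuclear oxidative phosphorylation lists against Cd4.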

Other observations

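Metallothionein genes, which bind zinc and copper, stood with the Tdp rather than the Cd4 cells. Mt1 had 1981 CPM in Tcell, 1547 in Tdp and 912 in Cd4 cells, and Mt2 had 237, 165 and 110 CPM. Both were called higher against Cd4, with a median log2 ratio of 1.11, and neither against Tdp, with 0.44. The nuclear noncoding RNAs Malat1 and Neat1 were above both labels, with medians of 0.64 and 0.61. Malat1 had 3079 CPM in Tcell, 2048 in Tdp and 2239 in Cd4 cells, but 3145 and 4414 CPM in the Tdp and Cd4 cells of like depth, so its excess was not seen there.

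Other lists gave the following medians, beside -0.07 against Tdp and -0.19 against Cd4 for all genes. Type 1 effector genes had medians of -0.00 against Tdp and -0.19 against Cd4, and Ifng, the cytokine interferon gamma, had 335, 293 and 345 CPM in Tcell, Tdp and Cd4 cells. The interferon response list had medians of -0.40 and -0.14, heat shock genes -0.27 and -0.45, and naive and homing genes -0.04 and -0.36. Apoptosis genes had -0.07 and -0.69, with 2 of 6 lower against Cd4. Proliferation genes had -0.21 and -0.46 over 4 genes each, and Mki67, a marker of cycling cells, had 0 UMIs in Tcell cells, 8.18 CPM in Tdp and 7.75 in Cd4 cells. Over 3 regulatory T cell genes the medians were 0.46 and -0.75.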
